A study of Homo sapiens with 11 samples.

Results

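The 29 genes described here encode enzymes of cholesterol synthesis and of fatty acid synthesis together with the proteins that control them. They were taken by symbol from a list, and all 29 were found among the 36601 genes of the deposited matrices. The list holds 7 genes of the mevalonate steps, 3 of the steps through squalene to lanosterol, 8 of the steps from lanosterol to cholesterol, 4 regulators and sterol carriers, and 7 of fatty acid synthesis.

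The RNA came from H9, an established human embryonic stem cell line, differentiated towards heart and collected at day 42.5. One group was stable chambered cardioids, which are heart organoids, treated with PD173074, a small-molecule inhibitor of FGF receptor kinases (3 libraries). The second was the same kind of cardioid without PD173074 (5 libraries), and the third was tissue grown as 2D culture (3 libraries). All groups are of 1 cell line, and the labels give neither the dose nor the time of PD173074.

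Libraries of a group were not separate cultures as far as the files show. Between 99.3% and 99.9% of barcodes were shared by any pair of libraries of the same group, with a correlation of log10 UMIs per barcode of at least 0.998, against at most 0.737% between groups. They were therefore taken as repeat sequencing runs of 1 set of droplets, and each group counts as 1 sample. Gene counts of 12 of the 16 pairs within a group differed by no more than counting error (chi-square per gene below 1). The pairs that hold run 3 without PD173074 differed more, at 6.50 to 7.08, and this run was averaged with equal weight. No test between groups is possible with 1 sample each, and no p-value is given. Each level is in CPM, the UMIs of a gene scaled to a common total and averaged over the runs of a sample. Each ratio is on the log2 scale of CPM, with an exact 95% interval from the mean count per run. These intervals cover counting error only, not the variation between cultures. The words higher and lower are kept for genes with at least 10 CPM on the higher side whose interval lies wholly past 1.5-fold, named the call below. Total UMIs per run lay between 36127841 and 37765195 with PD173074, between 12266166 and 24495291 without it, and between 43908067 and 46304366 in the 2D culture. Since UMIs mark 3' ends and are not scaled by transcript length, the levels of one member are not ranked against those of another.

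After filtering there were 4597 cells with PD173074, 3534 without it and 8183 of the 2D culture. Cells were clustered without the 29 genes, so that the clusters are not defined by them. The cardiomyocyte-like class held 2930 cells with PD173074, 2926 without it and 5890 from the 2D culture. All 10 cardiomyocyte markers were above 10 CPM there in every sample, and summed to 23612 CPM with PD173074, 16864 CPM without it and 13687 CPM in the 2D culture. The median UMI count per cell, averaged over runs, was 5780, 4934 and 3923 in that order of samples, and the median mitochondrial share was 4.11%, 3.42% and 5.09%. Clusters 4 and 8, high in cardiomyocyte genes but led by genes that include *ALDH1A2* and *MYH11*, markers of other classes, were set aside.

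The cardiomyocyte-like cells of the samples lay in different clusters. With PD173074 most were in clusters 2 (1664 cells), 7 (600) and 10 (456), without it in cluster 3 (1594), and in the 2D culture in clusters 0 (3268) and 1 (1770). In the sample without PD173074, 1157 cells of this class (39.5%) fell into clusters that come mainly from a different sample, 471 into those of the sample with PD173074 and 686 into those of the 2D culture. The same share was 2.39% with PD173074 and 2.61% in the 2D culture. Clusters of at least 100 cells, of whatever class, were then grouped by their main sample. The cells without PD173074 made up 13.9% to 15.4% of each of the 5 that were at least 75% of the sample with PD173074. They made up 8.67% to 11.9% of each of the 5 that were at least 75% of the 2D culture. The smaller cluster 14 (49 cells) lay outside that range, at 81.6% of the sample with PD173074 and 18.4% of the sample without it. Whether cells with such nearly even shares belonged to the cardioids without PD173074 or to the other samples cannot be told apart from the counts, so every result that rests on them is open to that doubt. Each comparison is therefore also given for a restricted set that omits such cells, a choice made after seeing the data. This set keeps 2860 cells with PD173074, 1769 without it and 5736 of the 2D culture. It leaves out the cells that cluster with another sample. If their labels are right, that choice can by itself widen the gaps between samples.

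Cells make cholesterol from acetyl-CoA through mevalonate, squalene and lanosterol, and make fatty acids from the same acetyl-CoA, which are then lengthened and desaturated. Both branches are switched on by the SREBP transcription factors. These are kept in the endoplasmic reticulum with the help of INSIG proteins while sterols are plentiful. When sterols run low they are cleaved, and the part released moves to the nucleus. Adult heart muscle draws much of its energy from burning fatty acids.

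Promoter windows of 250 bases before to 50 bases after a start were found for 25 of the 29 genes in RefSeq tables of build GRCh38.p14, 20 of them at the first base of the gene. ACAT2, FDFT1, SQLE and FASN were not matched. The 4 windows below include those of the 2 members with the widest gap between the cardioids with and without PD173074 (SC5D and ELOVL6). Another belongs to STARD4, the sterol carrier that was lower in each other class compared with cardiomyocyte-like cells. The last is that of SREBF2, the only member window with a match to the sterol regulatory element sequence searched. The ELOVL6 window belongs to a transcript start 587 bases inside the gene's annotated end. Sequences read 5' to 3' on the gene's strand, and capitals mark a sterol regulatory element (TCACNCCAC) or a CCAAT box (CCAAT), on either strand.
SC5D, chr11:121292521-121292820 (+): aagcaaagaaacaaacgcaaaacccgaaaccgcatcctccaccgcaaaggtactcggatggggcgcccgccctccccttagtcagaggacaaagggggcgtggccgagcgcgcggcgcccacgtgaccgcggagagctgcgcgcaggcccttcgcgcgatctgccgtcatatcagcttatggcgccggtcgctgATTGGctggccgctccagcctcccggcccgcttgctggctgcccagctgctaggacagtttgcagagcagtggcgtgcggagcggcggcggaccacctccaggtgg
ELOVL6, chr4:110198566-110198865 (-): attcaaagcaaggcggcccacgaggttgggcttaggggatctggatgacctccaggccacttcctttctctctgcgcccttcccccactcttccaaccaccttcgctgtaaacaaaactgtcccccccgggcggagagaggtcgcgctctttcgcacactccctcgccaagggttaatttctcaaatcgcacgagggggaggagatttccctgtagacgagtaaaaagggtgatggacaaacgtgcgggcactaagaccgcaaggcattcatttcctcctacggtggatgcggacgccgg
STARD4, chr5:111512486-111512785 (-): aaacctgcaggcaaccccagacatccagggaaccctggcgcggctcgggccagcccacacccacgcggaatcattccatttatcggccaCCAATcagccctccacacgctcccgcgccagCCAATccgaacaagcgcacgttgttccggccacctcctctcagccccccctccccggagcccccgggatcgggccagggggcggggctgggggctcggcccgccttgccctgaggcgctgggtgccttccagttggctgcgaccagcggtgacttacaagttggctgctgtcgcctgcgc
SREBF2, chr22:41832855-41833154 (+): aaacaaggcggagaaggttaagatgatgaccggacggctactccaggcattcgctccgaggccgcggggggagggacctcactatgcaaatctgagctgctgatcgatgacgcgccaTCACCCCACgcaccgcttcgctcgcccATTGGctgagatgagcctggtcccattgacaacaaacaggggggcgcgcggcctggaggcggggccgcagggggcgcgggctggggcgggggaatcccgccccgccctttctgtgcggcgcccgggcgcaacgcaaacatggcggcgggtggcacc

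An exact match to TCACNCCAC, taken here for the sterol regulatory element that SREBP proteins bind, was present in the window of 1 of 25 members, SREBF2 itself. Of all 35116 windows 1.13% had such a match. Inexact forms of the element and sites outside the windows were not searched, so windows without a match may still hold one. The CCAAT box, bound by NF-Y, a factor that acts beside SREBP, was present in 16 of 25 members (64.0%), against 34.6% of all windows. STARD4 had a pair of them, SC5D and SREBF2 had 1 each, and ELOVL6 had 0. The GC box (GGGCGG), bound by SP1, was present in 22 of 25 members (88.0%), against 45.0% of all windows and 56.3% of windows of protein-coding genes. Motifs were searched on both strands, and none of the 3 overlapped another in the windows printed. These matches describe the letters of the windows only.

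The first comparison asks how cardiomyocyte-like cells of cardioids given the FGF receptor inhibitor differed from those of cardioids without it. Of the 29 members, all at 10 CPM or more, 3 were lower with PD173074 (10.3%), *ACAT2*, *SC5D* and *ELOVL6*, and 0 were higher. Among all 10571 genes at that level, 4.70% were lower and 5.05% higher. The median log2 ratio of the members was -0.41, against -0.07 over all genes, and 26 of the 29 members had a ratio below 0, as had 58.9% of all genes. Summed over the members, the level was 1822 CPM with PD173074 (counting interval 1804 to 1841) and 2578 CPM without it (2554 to 2603). Intervals lay wholly below 0 for 20 members and wholly above 0 for 2. In the restricted set 8 members were lower, adding *IDI1*, *FDPS*, *FDFT1*, *CYP51A1* and *STARD4* (27.6%, against 5.89% of all genes). That set omits cells that cluster with another sample, so wider gaps in it are no independent check. The median there was -0.39, against -0.10 over all genes.

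*SC5D* (chr11:121292771-121313410 in GRCh38), the desaturase that places the C5 double bond late in cholesterol synthesis, showed the widest gap. It stood at 49.2 CPM with PD173074, 166 CPM without it and 103 CPM in the 2D culture. Single runs spanned 49.1 to 49.3 CPM, 159 to 169 CPM and 101 to 105 CPM in that order. Here and below, runs read the same droplets again, so their spread leaves out the variation between cultures. The log2 ratio with PD173074 against without was -1.76 (interval -1.86 to -1.65), a 3.38-fold difference. In the restricted set it was -2.11, from 48.4 and 209 CPM.

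*ELOVL6* (chr4:110045846-110199202), which lengthens palmitate to stearate, stood at 43.6 CPM with PD173074, 102 CPM without it and 147 CPM in the 2D culture. Single runs spanned 43.0 to 44.5 CPM, 99.9 to 105 CPM and 144 to 149 CPM in that order. The log2 ratio with PD173074 against without was -1.23 (interval -1.35 to -1.11). Its level was lowest with PD173074 and highest in the 2D culture. In the restricted set the ratio was -1.24.

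*ACAT2* (chr6:159762045-159779112), the cytosolic thiolase that joins acetyl-CoA units at the start of the mevalonate steps, stood at 38.7 CPM with PD173074, 74.2 CPM without it and 62.7 CPM in the 2D culture. Single runs spanned 37.8 to 39.6 CPM, 70.3 to 77.3 CPM and 62.0 to 63.1 CPM in that order. The log2 ratio with PD173074 against without was -0.94 (interval -1.07 to -0.81). In the restricted set it was -1.05. The gene overlaps exons of *TCP1* and *SOD2* on the other strand, and the sources used here do not say whether counting used strand.

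**Figure D1:**
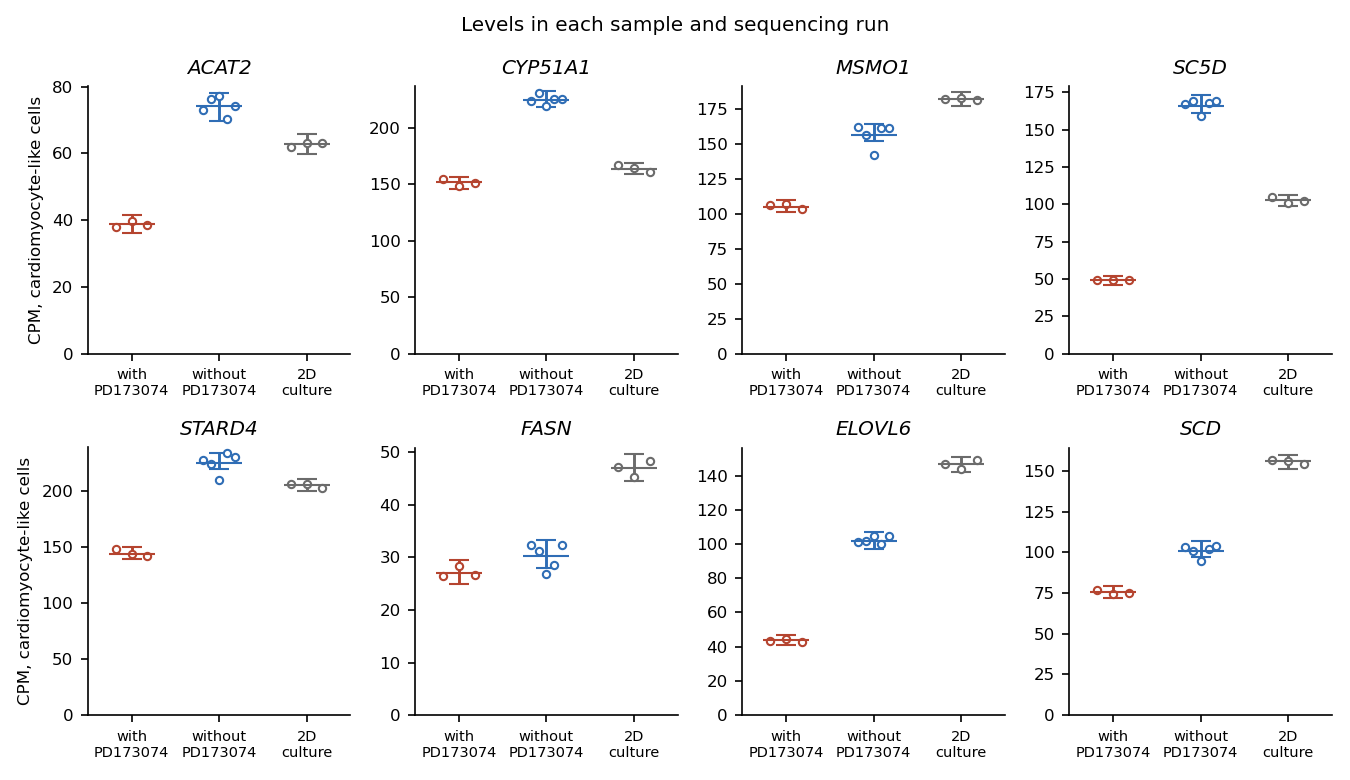
CPM in cardiomyocyte-like cells (y axes, linear from 0) of 8 members in the cardioids with PD173074, those without it and the 2D culture. Circles are sequencing runs of the same droplets, horizontal lines the mean over runs and bars the exact 95% counting interval. SC5D stood at 49.2, 166 and 103 CPM in that order.

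The other members of the mevalonate steps lay below 0 in ratio with PD173074 against without, and none passed the call. *HMGCS1*, which makes HMG-CoA, stood at 111 CPM with PD173074, against 162 CPM without it (-0.54). *IDI1*, the isopentenyl diphosphate isomerase, stood at 89.9 and 134 CPM in the same order (-0.58), and *FDPS*, which makes farnesyl diphosphate, at 92.2 and 143 CPM (-0.63). *MVD*, which decarboxylates mevalonate diphosphate, stood at 14.6 and 24.0 CPM (-0.72, interval -0.94 to -0.50). The kinases *MVK* (-0.16) and *PMVK* (-0.21) were nearest to 0. The median of the 7 genes was -0.58.

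The 3 genes through squalene to lanosterol lay on both sides of 0. *FDFT1*, squalene synthase, stood at 75.4 CPM with PD173074, against 119 CPM without it (-0.66), and *SQLE*, squalene epoxidase, at 72.4 and 105 CPM (-0.54). *LSS*, which closes the rings to lanosterol, stood at 43.2 CPM with PD173074, against 35.8 CPM without it (0.27, interval 0.12 to 0.42), and so lay on the other side of 0. None of the 3 was called.

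Among the 8 genes from lanosterol to cholesterol only *SC5D* was called in this comparison, and the median was -0.49. *CYP51A1*, the lanosterol demethylase, stood at 152 CPM with PD173074, against 225 CPM without it (-0.57). *MSMO1*, the C4 methyl sterol oxidase, stood at 105 and 156 CPM (-0.57), and *HSD17B7*, a sterol ketoreductase, at 12.5 and 18.6 CPM (-0.57). *TM7SF2*, a C14 sterol reductase, was at -0.41 and *EBP*, the sterol isomerase, at -0.25. *NSDHL* (-0.14) and *DHCR7* (-0.03), the reductase that makes cholesterol from its last precursor, had intervals that include 0. *HSD17B7* and *FDPS* have near-identical pseudogene copies, *TM7SF2* overlaps exons of *VPS51* on the same strand and *CYP51A1* overlaps the annotated genes AC000120.2 and AC000120.3, so their counts are uncertain to that extent. On the other strand *MVK* overlaps *MMAB* and *SREBF1* overlaps *RAI1*.

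None of the 4 regulators and carriers was called, and their median was -0.11. *SREBF2*, the SREBP gene tied mainly to cholesterol synthesis, stood at 141 CPM with PD173074, against 137 CPM without it (0.05, interval -0.03 to 0.13). *SREBF1*, tied mainly to fatty acid synthesis, stood at 26.0 and 21.0 CPM (0.31, interval 0.11 to 0.51). *INSIG1*, which holds SREBP in the endoplasmic reticulum and is itself an SREBP target, stood at 39.2 and 47.5 CPM (-0.28). *STARD4*, a carrier that moves cholesterol between membranes and another SREBP target, stood at 144 and 225 CPM (-0.64, interval -0.71 to -0.57), just short of the call. SREBP activity depends on cleavage of the protein, which was not measured here.

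Among the 7 genes of fatty acid synthesis the median was -0.28 and *ELOVL6* alone was called. *SCD*, which makes oleate, stood at 75.5 CPM with PD173074, against 101 CPM without it (-0.42), and *FADS1*, the delta-5 desaturase, at 115 and 150 CPM (-0.38). *FASN*, fatty acid synthase, stood at 27.1 and 30.3 CPM (-0.16, interval -0.34 to 0.02). *ACLY*, which supplies cytosolic acetyl-CoA, was at -0.28, *FADS2* at -0.14 and *ACACA*, which makes malonyl-CoA, at -0.02. *FADS2* overlaps exons of *FEN1* on the same strand and of *FADS1* on the other.

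The comparison could be repeated in the 4 clusters with at least 50 cells of both samples. In cluster 2, whose leading genes include *NPPA* and *NR2F1*, 1664 cells with PD173074 and 276 without it gave a median of -0.04, with 0 members called, against 0.0967% of all genes. Cluster 7, with *FGF12* as its top gene, gave -0.04, and cluster 10, with *TFPI2*, gave -0.06, again with 0 members called in each, against 0.117% and 0.0759% of all genes. In cluster 9, whose leading genes are those of dividing cells and which is not mostly of 1 sample, 140 cells with PD173074 and 175 without it gave a median of -0.49, against -0.10 over all genes. There 2 members were lower (6.90%, against 2.21% of all genes). *SC5D* stood at 54.3 CPM with PD173074, against 183 CPM without it (-1.75, interval -2.16 to -1.37), and *CYP51A1* at 144 and 270 CPM (-0.91). Clusters 2, 7 and 10 are mostly of the sample with PD173074, and the cells without PD173074 in them are among those the restricted set omits, at 14.0% to 15.4% of the cells of each. Given the doubt about the sample of these cells, the medians near 0 do not show that the samples were alike there. In cluster 9 the cells without PD173074 were 28.7%, and whether some of them are open to the same doubt was not tested. Cluster 3, mostly of the sample without PD173074, held 213 CPM of *SC5D* in that sample, against 30.1 CPM in cluster 2 and 122 CPM in cluster 10 of the sample with PD173074.

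**Figure D2:**
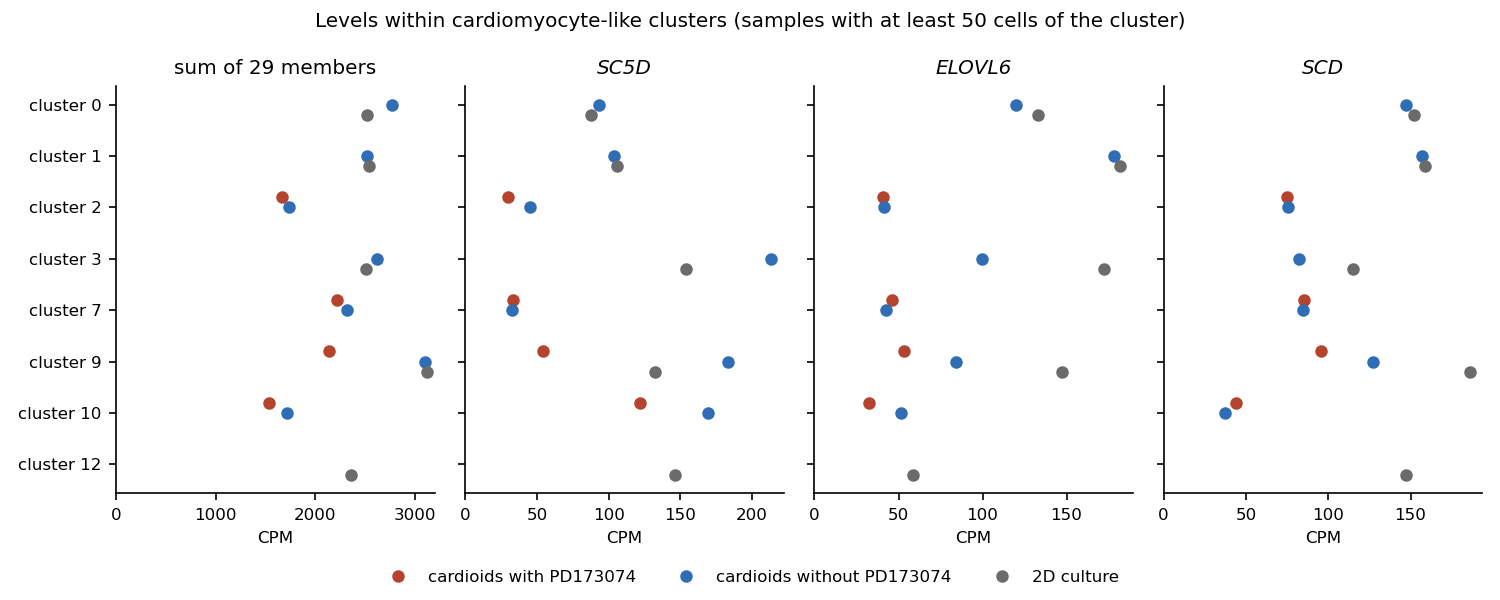
CPM (x axes, linear from 0) of the sum of the 29 members and of SC5D, ELOVL6 and SCD within each cardiomyocyte-like cluster (rows) for each sample with at least 50 cells there. In cluster 2 ELOVL6 stood at 40.7 CPM with PD173074, against 41.5 CPM without it, and in cluster 9 SC5D at 54.3 CPM and 183 CPM.

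The second comparison sets cardioids without PD173074 against the 2D culture. Of the 29 members 1 was higher without PD173074 (3.45%), *SC5D*, and 0 were lower. Among all 10423 genes at the level, 2.68% were higher and 0.931% lower. The median of the members was 0.00 when rounded, against 0.07 over all genes, and 15 members lay below 0, against 38.9% of all genes. The 18 enzymes of cholesterol synthesis summed to 1598 CPM without PD173074 and 1427 CPM in the 2D culture, and the 7 fatty acid genes to 549 and 691 CPM.

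*SC5D* stood at 166 CPM without PD173074 and 103 CPM in the 2D culture (0.70, 0.62 to 0.77). The call was kept in 16 of 23 alternative settings, and was lost under each of the 3 other scalings of CPM. *CYP51A1* stood at 225 CPM without PD173074 and 164 CPM in the 2D culture (0.46), and *PMVK* at 62.5 and 47.7 CPM (0.39), both short of the call. *FASN* stood at 30.3 CPM without PD173074 and 47.0 CPM in the 2D culture (-0.64, with an interval of -0.79 to -0.49). *SCD* stood at 101 and 156 CPM (-0.62, interval -0.71 to -0.54). *ELOVL6* (-0.52), *FADS2* (-0.48) and *SREBF1* (-0.42) also had intervals below 0, while *ACACA* (0.00 when rounded) and *FADS1* (-0.05) did not. In the restricted set *SC5D* was the 1 member called higher, at 1.03 with an interval of 0.95 to 1.12 (3.45%, against 4.62% of all genes), and *FASN* (-0.91) and *SCD* (-0.84) were called lower (6.90%, against 2.32%). The median there was -0.01, against 0.09 over all genes.

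In cluster 0, which held 404 cells without PD173074 and 3268 of the 2D culture, the median was 0.14. It was -0.02 in cluster 1, 0.06 in cluster 3 and -0.06 in cluster 9, with 0 members called in any of the 4. Of all genes 0.0200%, 0.0192%, 0.835% and 1.36% were called in clusters 0, 1, 3 and 9. The cells without PD173074 were 10.9% of cluster 0 and 11.9% of cluster 1, and the doubt about their sample holds for these clusters too. *SC5D* was at 0.09 in cluster 0 and 0.46 in cluster 3, and *ELOVL6* at -0.14 and -0.78.

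The third comparison sets cardioids with PD173074 against the 2D culture, and shares a sample with each of the other two. Of the 29 members 5 were lower with PD173074 (17.2%), *MSMO1*, *SC5D*, *FASN*, *ELOVL6* and *SCD*, and 0 were higher. Among all 10633 genes at the level, 6.40% were lower and 8.20% higher. The median of the members was -0.46, against 0.00 over all genes when rounded, and 26 members lay below 0, against 50.4% of all genes. *ELOVL6* stood at 43.6 CPM with PD173074 and 147 CPM in the 2D culture (-1.75, with an interval of -1.86 to -1.64), a 3.36-fold difference. *SC5D* stood at 49.2 and 103 CPM (-1.06, interval -1.17 to -0.96), and *SCD* at 75.5 and 156 CPM (-1.04, interval -1.13 to -0.96). *FASN* stood at 27.1 and 47.0 CPM (-0.79, interval -0.94 to -0.65), and *MSMO1* at 105 and 182 CPM (-0.79, interval -0.86 to -0.71). Runs with PD173074 spanned 103 to 107 CPM for *MSMO1*, 26.4 to 28.4 CPM for *FASN* and 74.6 to 76.9 CPM for *SCD*. Those of the 2D culture spanned 181 to 183 CPM, 45.4 to 48.4 CPM and 154 to 157 CPM in the same order. *PMVK* (0.18) and *LSS* (0.15) lay above 0, as did *DHCR7* (0.05), whose interval includes 0.

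The fatty acid genes had the lowest median of the 5 role groups in this comparison, at -0.62, and that of the mevalonate genes was -0.40. Cluster 9, the only cardiomyocyte-like cluster with at least 50 cells of both samples, gave a median of -0.53, against -0.09 over all genes, with 4 members lower (13.8%, against 3.51% of all genes). These were *MSMO1* (-0.89), *SC5D* (-1.28), *ELOVL6* (-1.48) and *SCD* (-0.96). In the restricted set *MSMO1*, *SC5D*, *FASN*, *ELOVL6* and *SCD* were lower (17.2%, against 6.53% of all genes), at a median of -0.48, against 0.00 over all genes when rounded.

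**Figure D3:**
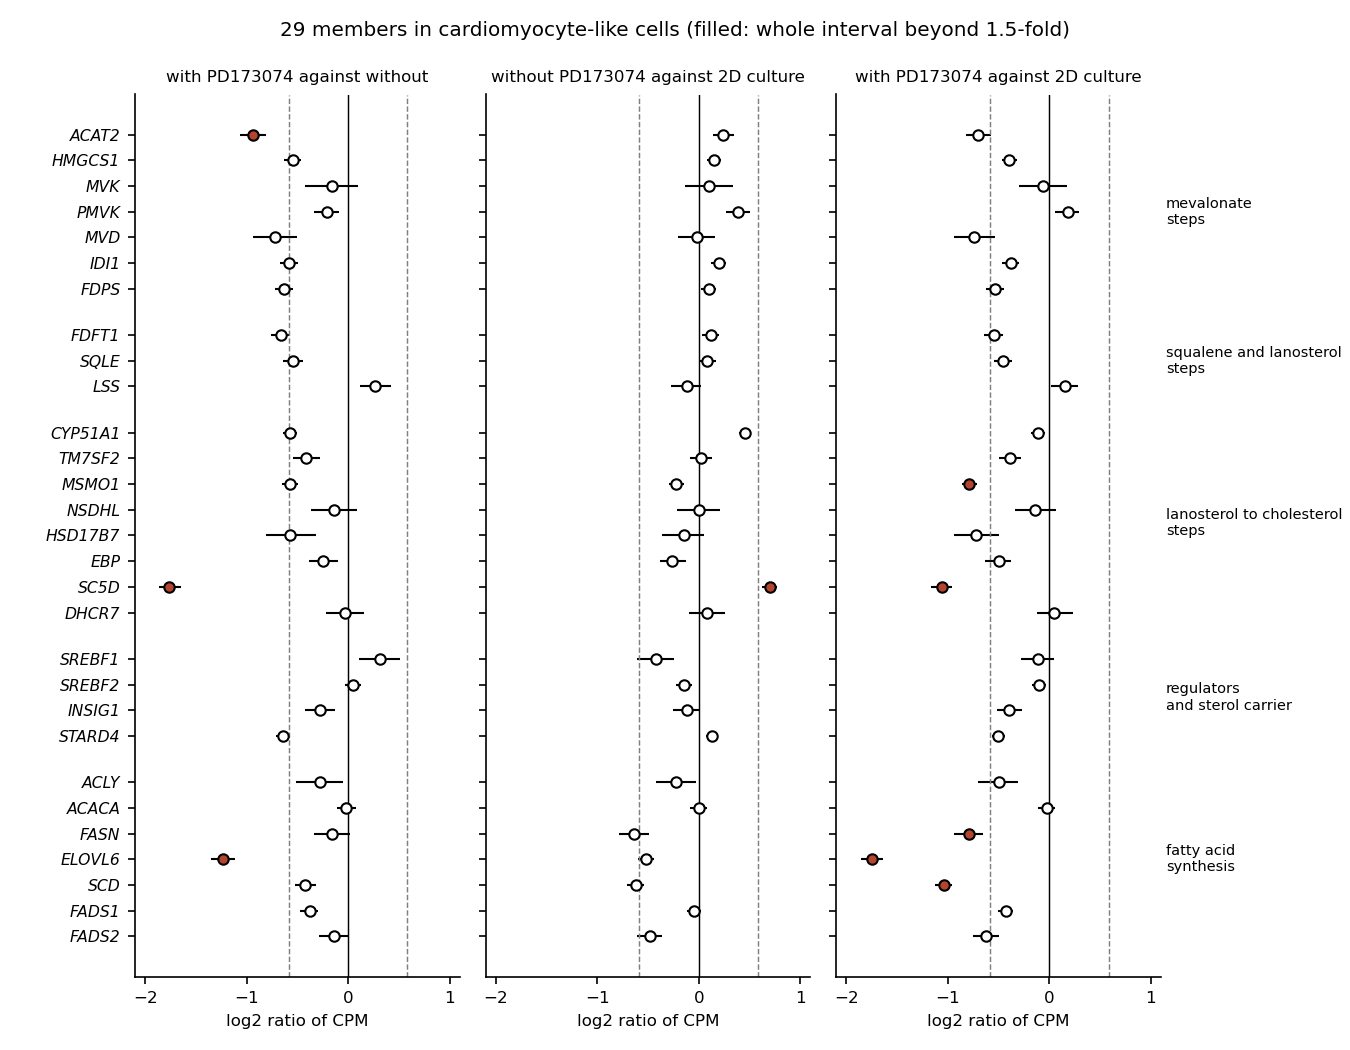
Log2 ratio of CPM (x axes) of the 29 members, grouped by role, in cardiomyocyte-like cells for the 3 comparisons, with exact 95% counting intervals; dashed lines mark 1.5-fold. Filled points are called, 3 with PD173074 against without, 1 without PD173074 against the 2D culture and 5 with PD173074 against the 2D culture.

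A list of 36 related lipid genes was read in the same cells. Of the 33 at the level with PD173074 against without, 1 was lower and 1 higher, at a median of -0.09. Over all genes 4.70% were lower and 5.05% higher, at a median of -0.07. *INSIG2*, the second INSIG gene, was lower, at 39.5 CPM with PD173074, against 65.2 CPM without it (-0.72). *ELOVL5*, which lengthens polyunsaturated fatty acids, was higher, at 95.2 and 53.9 CPM (0.82), so that *ELOVL5* and *ELOVL6* took opposite sides. Without PD173074 against the 2D culture *SCD5*, a second stearoyl-CoA desaturase, was the 1 gene called of 33, at 38.0 and 13.3 CPM (1.52), where *SCD* was at -0.62. Over all genes 2.68% were higher and 0.931% lower there. With PD173074 against the 2D culture *ELOVL5* (0.78) and *SCD5* (1.60) were higher, and 0 of the 31 at the level were lower. Over all genes 8.20% were higher and 6.40% lower there. Counts this small do not set the related list apart from all genes in any of the comparisons. The genes of sterol efflux and the LXR receptors had 0 of 5 called in each comparison, at medians of -0.41, 0.03 and -0.38 in the order of the comparisons above.

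Dividing cardiomyocyte-like cells of cluster 9 were also set against the other cardiomyocyte-like clusters of the same sample, and values before the word against are those of cluster 9. With PD173074, 2 members were higher (6.90%, against 7.57% of all genes) and 1 lower (3.45%, against 2.84%). Without PD173074, 6 were higher (20.7%, against 7.52%) and 0 lower, against 1.59%. In the 2D culture 2 were higher (6.90%, against 6.10%) and 1 lower (3.45%, against 0.375%). *ACAT2* was higher in dividing cells of all 3 samples, at 72.0 against 36.3 CPM with PD173074 (0.99), 132 against 69.4 CPM without it (0.92) and 106 against 59.5 CPM in the 2D culture (0.83). *FDPS* was higher with PD173074 (171 against 86.6 CPM) and without it (239 against 135 CPM). *INSIG1* was higher without PD173074 (86.2 against 44.3 CPM) and in the 2D culture (92.3 against 48.6 CPM). *EBP* (0.98), *FADS1* (0.78) and *FADS2* (0.91) were called higher without PD173074. *TM7SF2* was lower in dividing cells with PD173074 (22.3 against 50.8 CPM) and in the 2D culture (33.9 against 66.4 CPM). The medians of the members were 0.23, 0.29 and 0.39 in the order of the samples, against -0.08, -0.06 and 0.02 over all genes. The median UMI count of cluster 9 over all samples was 6707, and those of the other cardiomyocyte-like clusters lay between 3656 and 6316.

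The other cell classes of each sample were next set against its cardiomyocyte-like cells, and in each pair of values below the class comes before the word against and cardiomyocyte-like cells after it. *STARD4* was lower in all 9 such comparisons, at log2 ratios from -3.57 to -1.88. It stood at 22.2 CPM in cluster 5, 34.3 CPM in epithelial-like cells and 33.6 CPM in endoderm-like cells with PD173074, against 144 CPM in cardiomyocyte-like cells there. Without PD173074 it stood at 20.5 CPM in cluster 5, 54.0 CPM in stromal-like and 24.4 CPM in epithelial-like cells, and lay at -2.91 in endoderm-like cells, against 225 CPM in cardiomyocyte-like cells. In the 2D culture the stromal-like level was 56.0 CPM and the level in cluster 5 was 17.3 CPM, against 205 CPM in cardiomyocyte-like cells. *SREBF2* was lower in 8 of the 9 comparisons and *FADS1* in 7, and *ELOVL6* in 5. The cardiomyocyte-like cells of a sample serve in each of its comparisons, so these are not independent. Cardiomyocyte markers summed to between 188 and 3046 CPM in these classes where they held at least 50 cells, against at least 13687 CPM in cardiomyocyte-like cells. The part of free RNA in their levels was not tested. The set-aside clusters 4 and 8, also high in cardiomyocyte genes, were not among these comparisons. They held *STARD4* at 59.0 CPM with PD173074, 117 CPM without it and 127 CPM in the 2D culture. Cluster 8 alone held 59.1 CPM with PD173074 and 55.8 CPM without it, near the stromal-like levels. High *STARD4* was thus not shared by all cells high in cardiomyocyte genes.

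Cluster 5, with *MATN4* among its leading genes, numbered 522 cells with PD173074, 142 without it and 251 for the 2D culture. Its leading genes hold cartilage markers, but it is kept under its number, since it joins unlike cells. At resolution 1.0, 428 of its cells with PD173074, 71 without it and 9 of the 2D culture lay in a cluster with stromal markers, and 94, 70 and 242 cells in that order lay in one with cartilage markers. The 9 cartilage markers summed to 438 CPM, 1243 CPM and 2148 CPM in the whole of cluster 5 in the same order, and the 8 stromal markers to 8587 CPM, 8843 CPM and 12525 CPM. With PD173074, 6 members were lower than in cardiomyocyte-like cells (20.7%, against 17.8% of all genes) and 1 higher (3.45%, against 13.6%). Without PD173074, 7 were lower (24.1%, against 12.2%) and 0 higher, against 11.4% of all genes. In the 2D culture 10 were lower (34.5%, against 18.7%) and 0 higher, against 11.6% of all genes. *TM7SF2* was lower in each sample, at 14.3 against 48.9 CPM with PD173074, 15.8 against 65.1 CPM without it and 3.26 against 64.1 CPM in the 2D culture. *ACAT2* was called higher with PD173074, at 66.4 against 38.7 CPM (0.78). *SC5D* was lower without PD173074, at 47.0 against 166 CPM, while with PD173074 it stood at 47.5 against 49.2 CPM. The members' medians were -0.23, -0.65 and -0.72 in the order of the samples, against -0.15, -0.20 and -0.32 over all genes. The 8 endoderm markers summed to 14.4 CPM with PD173074, 1295 CPM without it and 19.6 CPM in the 2D culture, and their part in these results was not tested.

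Between the groups, cluster 5 with PD173074 had 0 of 28 members called against those without it, where 1.86% of all genes were called in either direction. Without PD173074 against the 2D culture *TM7SF2* was higher, 1 of 28 members (3.57%, against 4.42% of all genes). With PD173074 against the 2D culture *HMGCS1* (165 and 76.6 CPM, 1.11) and *TM7SF2* (14.3 and 3.26 CPM, 2.14) were higher, 2 of 28 members (7.14%, against 10.2% of all genes). *SC5D* stood at 47.5 CPM with PD173074, 47.0 CPM without it and 61.6 CPM in the 2D culture, and *ELOVL6* at 25.6 CPM, 32.0 CPM and 30.4 CPM, with neither called. *TM7SF2* was under 10 CPM in the 2D culture, and its intervals were wide, 0.76 to 3.96 with PD173074. These ratios set unlike cells side by side. Within the part of cluster 5 with cartilage markers (94, 70 and 242 cells) 0 members were called in any of the 3 comparisons, against 1.90%, 2.38% and 5.86% of all genes. The cells of that part were not alike across samples either. Their endoderm markers summed to 14.1 CPM with PD173074, 2551 CPM without it and 18.9 CPM in the 2D culture. Their cartilage markers summed to 1059 CPM, 2058 CPM and 2184 CPM in the same order. There *HMGCS1* stood at 101 CPM with PD173074, against 73.3 CPM in the 2D culture (0.46, with an interval from -0.01 to 0.92), and *TM7SF2* at 5.30 and 3.41 CPM. In the part with stromal markers (428 and 71 cells) 0 members were called with PD173074 against without, where 0.752% of all genes were called. That part lay in a cluster of resolution 1.0 that was 84.6% of the sample with PD173074. The doubt about the sample of cells without PD173074 holds for its 71 cells, and for values of cluster 5 that include them. The split of cluster 5 was chosen after seeing the data.

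Stromal-like cells, cluster 6, numbered 2 with PD173074, 66 without PD173074 and 693 in the 2D culture. The small number with PD173074 holds for this cluster alone, since at resolution 1.0 a further cluster with stromal markers held 509 cells with PD173074, 83 without it and 10 of the 2D culture. In cluster 6 members stood above as well as below the level of cardiomyocyte-like cells. Without PD173074, 5 members were higher (17.2%, against 10.6% of all genes) and 2 lower (6.90%, against 15.4%). In the 2D culture 3 were higher (10.3%, against 12.1%) and 4 lower (13.8%, against 23.6%). *ACAT2* stood at 203 against 74.2 CPM without PD173074 (1.45) and at 143 against 62.7 CPM in the 2D culture (1.19). *MVD* stood at 78.0 against 24.0 CPM (1.70) and 55.5 against 24.3 CPM (1.19), and *ACLY* at 61.8 against 19.6 CPM (1.66) and 46.8 against 22.8 CPM (1.04), in the same order. *SQLE* (0.87) and *FADS2* (1.22) were also called higher without PD173074. Stromal-like cells without PD173074 had 0 of 29 members called against those of the 2D culture, where 0.207% of all genes were called. The 66 cells were 8.67% of the cluster, so this result and the values without PD173074 above are open to the doubt about their sample. The median UMI count of these cells was 15513 without PD173074 and 10983 in the 2D culture, above that of cardiomyocyte-like cells. The members' medians were 0.16 without PD173074 and 0.07 in the 2D culture, against -0.35 and -0.32 over all genes.

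Epithelial-like cells, cluster 11, numbered 491 with PD173074 and 79 without it. The 2D culture held 0 among its 8183 cells, for which 3 cells would be 0.0367%. With PD173074, 8 members were lower than in cardiomyocyte-like cells (27.6%, against 29.9% of all genes) and 2 higher (6.90%, against 15.8%). Without PD173074, 12 were lower (41.4%, against 13.3%) and 0 higher, against 11.2% of all genes. The members' medians were -0.32 with PD173074 and -0.92 without it, against -0.34 and -0.37 over all genes. *FADS1* stood at 24.2 against 115 CPM with PD173074 (-2.25) and at 11.2 against 150 CPM without it (-3.74), and *SCD* at 27.3 against 75.5 CPM (-1.47) and 21.4 against 101 CPM (-2.24). *FADS2* and *ACACA* were lower in both samples too. *TM7SF2* (102 against 48.9 CPM, 1.05) and *HSD17B7* (29.4 against 12.5 CPM, 1.23) were higher with PD173074. Epithelial-like cells with PD173074 had 0 of 28 members called against those without it, where 0.398% of all genes were called. The 79 cells were 13.9% of the cluster, and whether they belonged to the cardioids without PD173074 cannot be told apart, which touches each value without PD173074 here.

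Endoderm-like cells, cluster 13, numbered 73 with PD173074 and 78 without it. Their median mitochondrial share was 1.73% with PD173074 and 0.00936% without it, and the part of this gap in the values below was not tested. With PD173074, 5 members were lower than in cardiomyocyte-like cells (17.2%, against 19.0% of all genes) and 1 higher (3.45%, against 16.1%), *EBP* at 88.4 against 41.4 CPM. Without PD173074, 6 were lower (20.7%, against 10.7%) and 0 higher, against 16.0% of all genes. The members' medians over cardiomyocyte-like cells were 0.22 with PD173074 and -0.66 without it, against -0.27 and 0.11 over all genes. Between the groups 2 of 29 members were called (6.90%, against 12.2% of all genes in either direction). *HMGCS1* was higher with PD173074, at 155 CPM, against 63.0 CPM without it (1.30, interval 0.84 to 1.78), and *SC5D* was lower, at 46.9 and 106 CPM (-1.18, interval -1.70 to -0.66). The median over all genes in this comparison was -0.40 and that of the members 0.16. The 7 endothelial markers, all at 10 CPM or more, summed to 877 CPM with PD173074, against 587 CPM without it, the 9 epithelial markers to 3964 CPM and 6612 CPM, and the 8 endoderm markers to 4157 CPM and 3163 CPM.

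**Figure D4:**
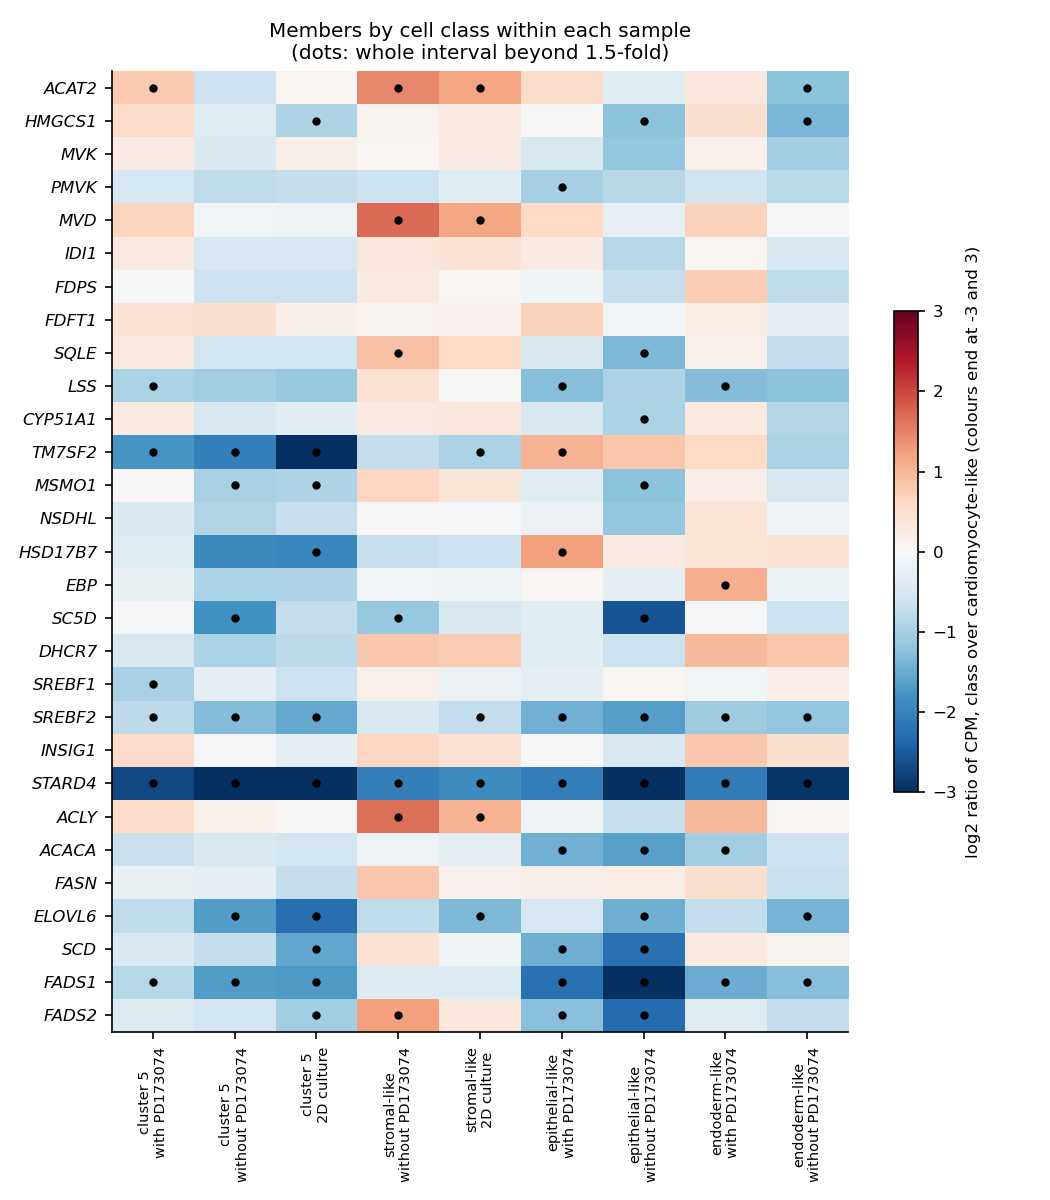
Log2 ratio of CPM (colour) of the 29 members (rows) in cluster 5 and each other cell class over cardiomyocyte-like cells of the same sample (columns, with the cardioids with PD173074 first); dots mark called members. STARD4 is dotted in all 9 columns, and stromal-like columns hold the calls above 0 of MVD and ACLY.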

How the data were processed

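Gene counts came from 11 droplet libraries read at 3' ends (chemistry version 2 or 3, per the labels' protocols). The authors deposited raw UMI counts per gene and barcode, with Cell Ranger 7.0.0 and hg38 named in the submitters' processing notes. No source used here names the annotation release.

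Cells were barcodes in every run of a group with at least 1000 UMIs, 500 genes and at most 30% mitochondrial UMIs. Counts scaled to 10000 per cell, 2000 variable genes without the members and related lists, 30 components, 15 neighbours and leidenalg 0.10.2 (resolution 0.6) in scanpy 1.11.5 gave the clusters. When the members and related lists were not removed first, 0 members and 1 related gene were chosen. Scrublet, run on 1 run a group, marked at most 0.0566% of cells, taken as not having worked, so no doublets were removed. Clusters were named from marker lists; the level of 9 (mean log2 of CPM plus 1) for cardiomyocyte-like cells was chosen after seeing the data. Cluster 14 (49 cells) stayed unnamed.

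CPM were computed from the deposited counts, with a floor of 3 counts in place of 0. Values are given in full for members called in at least 1 group comparison or class and, to limit what is printed, for 3 picked by CPM alone (STARD4, CYP51A1 and MSMO1), and for others in brief. The members and lists were chosen with earlier results of these data known. The comparison was tested on simulated data. Alternatives were other scalings, floors, folds, cell filters and clusterings, and each run left out.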

Additional observations from a re-analysis of the deposited data

Results flagged for a closer look

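Among 30 levels in the 5 runs without PD173074 (the 29 members and their sum in cardiomyocyte-like cells), run 3 stood apart from the other 4 runs for 6 members. The rule flags about 1 in 20 sets of 5 independent values of equal spread. These runs share their droplets and differ in depth, so the 6 flags cannot be set against that rate. Run 3 was the shallowest run, with 12266166 UMIs. Over all genes, too, its counts differed from those of the other 4 runs beyond counting error, at a chi-square per gene of 6.50 to 7.08. *PMVK* stood at 73.5 CPM there, against 57.6 to 62.0 CPM in the other runs, *FDPS* at 173 CPM (132 to 137), *TM7SF2* at 78.0 CPM (60.6 to 63.3) and *ACLY* at 21.8 CPM (18.6 to 19.4). *MSMO1* stood lower there, at 142 CPM (156 to 162), as did *SC5D*, at 159 CPM (167 to 169). The runs share their droplets.

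Differences between the groups went opposite ways in 2 classes for 2 genes, and the difference between classes was not tested. *HMGCS1* in cluster 5 with PD173074 against the 2D culture was at 1.11 and in cardiomyocyte-like cells at -0.40. *TM7SF2* in the same comparison was at 2.14 in cluster 5, from 14.3 and 3.26 CPM, and at -0.39 in cardiomyocyte-like cells. In the part of cluster 5 with cartilage markers they were at 0.46 and 0.64, neither called. *HMGCS1* in endoderm-like cells with PD173074 against without was at 1.30 and in cardiomyocyte-like cells at -0.54.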

How the results depend on the processing

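None of 197 recomputed ratios of called members changed sign, and 22 of them moved outside their first interval. Settings that change only the floor or the fold leave a ratio as it was, and leaving out a run keeps the same droplets. In those settings a change of sign could hardly occur, so the count of 197 overstates the check. The medians kept their sign with PD173074 against without (-0.42 to -0.31) and against the 2D culture (-0.53 to -0.33). The 3 members lower with PD173074 than without became 5 when the lists were not removed before choosing variable genes (called unremoved below) and 8 in the restricted set of cells, without those in clusters of mainly a different sample. *SC5D* and *ELOVL6* kept that call in all 23 alternatives and *ACAT2* in 20, losing it at 2-fold, with no cell filter and over all cells. Against the 2D culture *ELOVL6* kept its call in 21 of 21 and *MSMO1*, *SC5D*, *FASN* and *SCD* in 20, each lost at 2-fold. No scaling moved the median of all genes by over 0.1. Without PD173074 against the 2D culture, the 1 higher member became 0 with CPM taken without mitochondrial and ribosomal protein genes or without the 50 top genes, with median-of-ratios scaling, at 2-fold, with no cell filter, over all cells and at resolution 1.0. The 0 lower members became 1 without mitochondrial and ribosomal protein genes, with median-of-ratios scaling and at a mitochondrial limit of 15%, and 2 in the unremoved setting or the restricted set. With PD173074 against the 2D culture, the 5 lower members became 1 at 2-fold, 8 at the 15% limit, with no cell filter and over all cells, and 10 in the unremoved setting. Since 0 members were then chosen, that setting shows a change of clusters, not of members, and clusters with 3451 cells of the 2D culture were set aside in it. The 15% limit set aside 1519 cells of the 2D culture. Resolution 1.0 set aside 1854 cells without PD173074 and 3488 of the 2D culture, against 234 and 1346 in the main setting. That median moved to -0.33 with no cell filter and over all cells. The causes were not tested. Apart from the restricted set, the share of all genes called in each setting is not given here. Changes in these counts therefore cannot be set against it. Leaving out any 1 run moved no count by over 1.5 times. No paired analysis was possible because the runs of a group share their droplets and no test was made.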
